A study of Mus musculus with 6 samples.

Results

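The genes of the IL-12 and IL-23 cytokine family were followed by RNA sequencing in macrophages sorted from mouse mammary tumours. The 5 members, Il12a, Il12b, Il23a, Il27 and Ebi3, were taken by name from a table of 35275 genes, and each matched 1 row. The family was chosen by measured values: the FPKM difference between the Atg5 labels, in which Il23a had come out among the lower genes in Atg5 KO. The members were thus selected on that contrast, and their differences in that contrast are given as descriptions without a test. Below, Atg5 WT and Atg5 KO mean the libraries so labelled.

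The macrophages were CD11b+ F4/80+ Ly6G- Ly6C- cells sorted from tumours of female FVB/NJ mice aged 65 days. All mice carried the MMTV-PyMT transgene, in which a mammary tumour virus promoter drives the polyoma middle T oncogene in mammary epithelium, and the Atg5flox/flox alleles. The 3 mice labelled Atg5 WT carried no Cre, and LysMcre was added in the 3 mice labelled Atg5 KO. This Cre is expressed from the Lyz2 locus in myeloid cells, including neutrophils and monocytes as well as macrophages. The comparison asked how loss of Atg5, which encodes a protein needed to form autophagosomes, changes gene expression in these cells.

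Cytokines of this family are pairs of unlike chains. An alpha chain folds as a bundle of helices, and a beta chain resembles a soluble cytokine receptor. IL-12 joins p35, from Il12a, to p40, from Il12b. IL-23 joins p19, from Il23a, to the same p40, and IL-27 joins p28, from Il27, to the chain from Ebi3. The chain from Ebi3 can also pair with p35 to form IL-35. Macrophages and dendritic cells make the chains after microbial or CD40 signals. IL-12 and IL-27 act on T cells and natural killer cells and favour interferon gamma production, while IL-23 sustains cells that make interleukin 17.

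Promoters of the beta chains are shown because the p40 and Ebi3 chains are each shared by 2 cytokines and made up most of the family's transcripts. By symbol, 3 of the 5 members (Il12a, Il12b and Ebi3) matched a RefSeq window on GRCm38.p6, the same build as mm10. Each window runs from 250 bases before the annotated start to 50 after it, on the plus strand, 5′ to 3′. Capitals mark matches to the motif letters that were searched.
Il12b, chr11:44399813-44400112: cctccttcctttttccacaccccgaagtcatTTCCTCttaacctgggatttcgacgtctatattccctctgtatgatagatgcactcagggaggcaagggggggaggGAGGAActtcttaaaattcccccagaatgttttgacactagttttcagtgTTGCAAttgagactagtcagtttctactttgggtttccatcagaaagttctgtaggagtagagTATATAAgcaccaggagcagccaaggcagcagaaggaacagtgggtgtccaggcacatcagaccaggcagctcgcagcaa
Ebi3, chr17:55952373-55952672: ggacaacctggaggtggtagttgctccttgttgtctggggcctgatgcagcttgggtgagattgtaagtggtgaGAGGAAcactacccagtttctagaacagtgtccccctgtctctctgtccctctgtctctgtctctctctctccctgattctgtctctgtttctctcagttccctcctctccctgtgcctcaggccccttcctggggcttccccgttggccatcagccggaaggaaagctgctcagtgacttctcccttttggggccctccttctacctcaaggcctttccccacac

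Both strands were searched for 4 short motifs, and percentages give the share of the 32851 listed promoters that held each. The Il12b window held TTGCAA, the C/EBP letters, from -93 to -88 (6.23%), TATATAA from -30 to -24 (3.24%) and the PU.1 letters GAGGAA at 2 places on opposite strands (28.3%). The Ebi3 window held GAGGAA once, from -176 to -171, and none of the other letters searched. Neither window held the AP-1 letters TGANTCA (7.81%). These matches overlapped no other motif, and a match or its absence in these windows shows nothing about binding.

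Libraries held between 18770262 and 21173301 reads, recovered from the deposited FPKM values (reads scaled by gene length and by the reads of the library). Whole-gene Atg5 went against the label, at 5.11 to 5.28 FPKM in Atg5 WT and 14.0 to 17.4 in Atg5 KO, a value that does not isolate the deleted exon. Lyz2 went with the label, at 2060 to 6571 against 8.43 to 16.1. As the Cre is expressed from the Lyz2 locus, this value tracks the Cre and does not show deletion of Atg5. Atg5 WT mice carried no Cre, so effects of the Cre, of low Lyz2 and of Atg5 loss cannot be told apart here. Markers of macrophages were high in every library, with Csf1r at 119 to 471 FPKM, and the gated-out marker Ly6g stood at 0 to 0.308. RNA of tumour cells was also present. The summed FPKM of 23 mammary epithelium and tumour genes ran from 1043 to 10782 in Atg5 WT and from 970 to 3774 in Atg5 KO. Replicate 2 of Atg5 WT was set off from the rest by the most tumour-cell RNA and the least macrophage RNA. In such bulk samples, fewer cells of a type and less RNA per cell cannot be told apart.

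In these macrophages Il12b was the most abundant member and Il12a was close to undetected. Mean levels over the 6 libraries were 14.2 FPKM for Il12b, 7.77 for Ebi3, 5.82 for Il23a, 2.93 for Il27 and 0.161 for Il12a. Among the 12332 genes whose mean FPKM reached 1, Il12b stood at percentile 63.2 and Il27 at percentile 20.1. In Atg5 KO, Il23a had a mean of 3.66 FPKM against 7.98, and Il27 a mean of 4.78 against 1.08. The groups did not overlap for these 2 members, 1 in each direction, while those of Il12a, Il12b and Ebi3 overlapped. Over all tested genes the groups did not overlap, with higher values in Atg5 KO, for 9.20% and, with lower values, for 9.41%, or 18.6% in either direction. Nothing is read from the members' count, since this contrast helped to choose them.

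**Figure D1:**
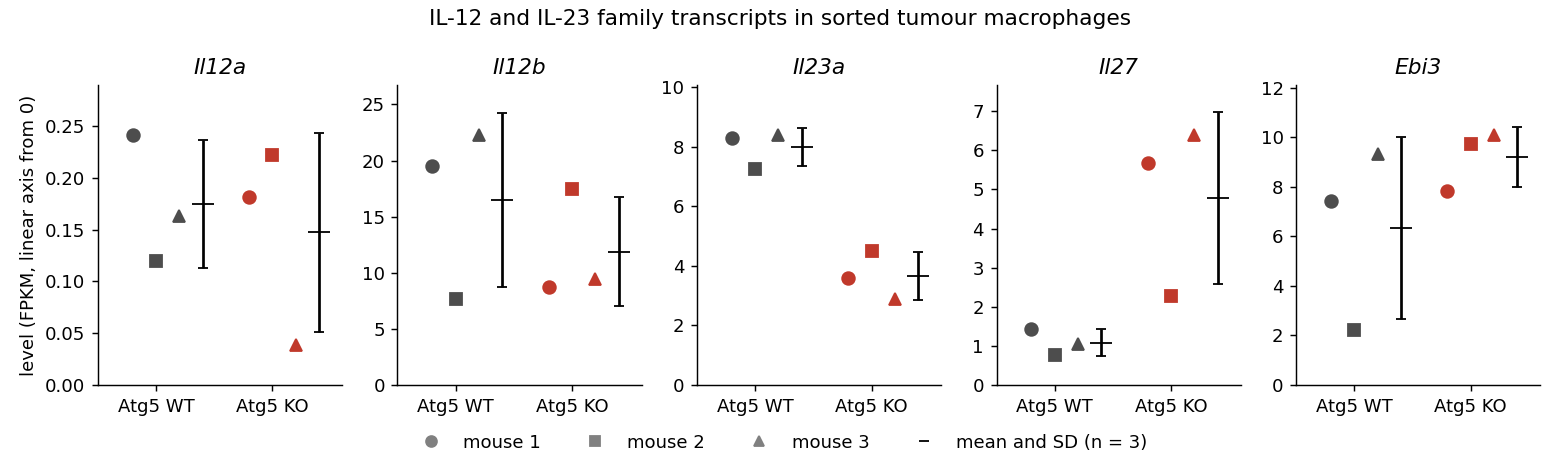
Level of each member in FPKM (linear axes from 0, each panel with its own scale) by group, with 1 symbol per mouse and the mean and SD of 3 libraries as bars. Il23a is lower in all 3 Atg5 KO libraries (2.88 to 4.51 against 7.24 to 8.39) and Il27 is higher in all 3 (2.27 to 6.40 against 0.761 to 1.44), while the other members overlap.

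Il23a (chromosome 10, 128296140 to 128298084, minus strand, mm10) encodes p19, the chain particular to IL-23. Its FPKM was 8.30, 7.24 and 8.39 in Atg5 WT replicates 1 to 3 and 3.58, 4.51 and 2.88 in Atg5 KO. The highest Atg5 KO library lay well under the lowest Atg5 WT library, and the Atg5 WT libraries lay close together. The reads behind these values numbered 215, 190 and 214 against 103, 127 and 78. Group means were 7.98 ± 0.637 and 3.66 ± 0.815 FPKM (SD, n = 3 each), so the level in Atg5 KO was 45.8% of that in Atg5 WT. On the log2(FPKM + 1) scale the difference was -0.96.

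Il27 (chromosome 7, 126589010 to 126594941, minus strand) encodes p28, the alpha chain of IL-27. Its FPKM was 1.44, 0.761 and 1.04 in Atg5 WT and 5.69, 2.27 and 6.40 in Atg5 KO. All Atg5 KO libraries were above all Atg5 WT libraries, but replicate 2 of Atg5 KO stood far below the other two. The reads were few, at 28, 15 and 20 against 123, 48 and 130. Means were 1.08 ± 0.34 and 4.78 ± 2.21 FPKM (SD, n = 3 each), 4.43-fold higher in Atg5 KO, and the difference was 1.40 on the log2(FPKM + 1) scale. The 95% exact Poisson intervals of the nearest libraries overlapped, reaching up to 2.08 FPKM for Atg5 WT replicate 1 and down to 1.67 for Atg5 KO replicate 2. Such intervals cover counting error only. Apobr, a lipoprotein receptor gene on the other strand, shares 103 bp with the end of Il27. Its FPKM was 18.3, 13.96 and 21.7 in Atg5 WT and 22.0, 20.9 and 24.9 in Atg5 KO, and how the authors assigned reads of the shared stretch is unknown here.

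Il12b (chromosome 11, 44400063 to 44414033, plus strand) encodes p40, which IL-12 and IL-23 share. Its FPKM was 19.5, 7.62 and 22.3 in Atg5 WT and 8.72, 17.5 and 9.41 in Atg5 KO. The libraries fell into a high set (Atg5 WT replicates 1 and 3, Atg5 KO replicate 2) and a low set of the other 3, which cut across the labels. Means were 16.5 ± 7.79 and 11.9 ± 4.88 FPKM (SD, n = 3 each), and the log2 difference of -0.38 was smaller than the SD of 0.78 among the Atg5 WT libraries. Without Atg5 WT replicate 2 it was -0.83, and without Atg5 WT replicate 3 it was -0.11.

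Ebi3 (chromosome 17, 55952623 to 55957021, plus strand) encodes the beta chain of IL-27 and IL-35. Its FPKM was 7.44, 2.21 and 9.33 in Atg5 WT and 7.83, 9.73 and 10.1 in Atg5 KO. Atg5 WT replicate 2, the library with the least macrophage RNA, was low, and the other 5 lay close together. Means were 6.33 ± 3.69 and 9.22 ± 1.21 FPKM (SD, n = 3 each), a log2 difference of 0.64 that was 0.12 without Atg5 WT replicate 2. The antisense gene Gm16712 shares 2251 bp of the span of Ebi3 and stood at 0.771 to 1.67 FPKM over the 6 libraries.

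Il12a (chromosome 3, 68690644 to 68698547, plus strand) encodes p35, the chain particular to IL-12 and IL-35. It had 6, 3 and 4 reads in Atg5 WT and 5, 6 and 1 in Atg5 KO, or 0.0386 to 0.241 FPKM. The groups overlapped, and the 95% exact Poisson intervals of all 6 libraries overlapped. With a mean FPKM under 1 it was the member that missed the filter, and a difference between groups was not detectable at this depth.

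The chains that must pair were present in unequal amounts. Per length, Il12b stood at 48.1 to 244 times the level of Il12a, and Il23a at 19.8 to 74.8 times, so p19 transcripts exceeded p35 transcripts in each library. The ratio of Il23a to Il12b was 0.425, 0.950 and 0.377 in Atg5 WT and 0.410, 0.258 and 0.307 in Atg5 KO. These ratios overlapped between groups, although Il23a itself did not. The ratio of Il27 to Ebi3 was 0.193, 0.344 and 0.112 against 0.727, 0.233 and 0.634, which overlapped too. Ebi3 thus exceeded Il27 in all 6 libraries, and Il12b exceeded Il23a in all 6.

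The make-up of the family differed between the labels while its sum did not separate them. Summed over the 5 members, the level was 32.0 ± 12.4 FPKM in Atg5 WT and 29.7 ± 4.17 in Atg5 KO (SD, n = 3 each). Il23a made up 20.4% to 40.3% of that sum in Atg5 WT and 10.0% to 13.8% in Atg5 KO. Il27 made up 2.53% to 4.24% against 6.63% to 22.2%, and Ebi3 12.3% to 22.7% against 28.4% to 35.0%. The ratio of Il27 to Il23a was 0.173, 0.105 and 0.124 in Atg5 WT and 1.59, 0.503 and 2.22 in Atg5 KO. In Atg5 KO replicates 1 and 3 Il27 stood above Il23a, and in replicate 2 and in all Atg5 WT libraries it stood below. These shares restate the differences that helped to choose the members and carry no test.

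**Figure D2:**
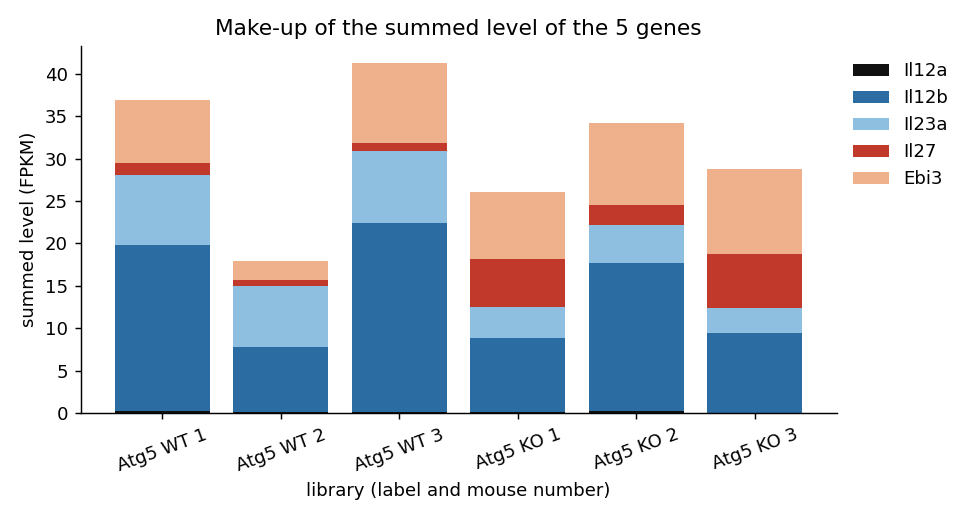
Stacked level of the 5 members (FPKM, linear axis from 0) in each library. Il12b is the largest piece in 5 libraries, Ebi3 in Atg5 KO replicate 3. The Il23a piece is larger in each Atg5 WT library than in any Atg5 KO library, the Il27 piece is smaller, and Il12a is barely visible.

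Each member had its own pattern over the 6 libraries. Likeness was measured as the root-mean-square difference of log2(FPKM + 1) after each gene's mean over the libraries was taken away, among 11366 tested genes with assigned names. Smaller values mean a closer match, and they describe these 6 libraries only. Nearest to Il23a were Nt5e, which encodes the enzyme CD73 that makes adenosine (0.105), the transcription factor gene Ets2 (0.130), the semaphorin gene Sema7a (0.143), the proteoglycan gene Sdc4 (0.148) and the basement membrane gene Nid2 (0.148). Nt5e stood at 8.07, 5.39 and 7.09 FPKM in Atg5 WT and at 3.11, 3.80 and 2.15 in Atg5 KO.

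Among the genes nearest to Il27 were Tap1, the peptide transporter of class I antigen presentation (0.0726) and the guanylate-binding protein gene Gbp9 (0.168). Tap1 stood at 15.5, 11.6 and 14.8 FPKM in Atg5 WT and at 48.0, 21.6 and 48.1 in Atg5 KO, with replicate 2 of Atg5 KO lowest of its group, as for Il27. Nearest to Il12b were Il4i1, which encodes an amino acid oxidase (0.0963), Pmp22 (0.11) and Rel, which encodes the NF-kB subunit c-Rel (0.112). Rel stood at 61.8, 31.2 and 78.3 FPKM in Atg5 WT and at 32.5, 69.3 and 32.2 in Atg5 KO, with the same 3 libraries high as for Il12b. Nearest to Ebi3 were Itgax, which encodes CD11c (0.067), Slc8a1 (0.0671) and Emp3 (0.0672), all lowest in Atg5 WT replicate 2.

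**Figure D3:**
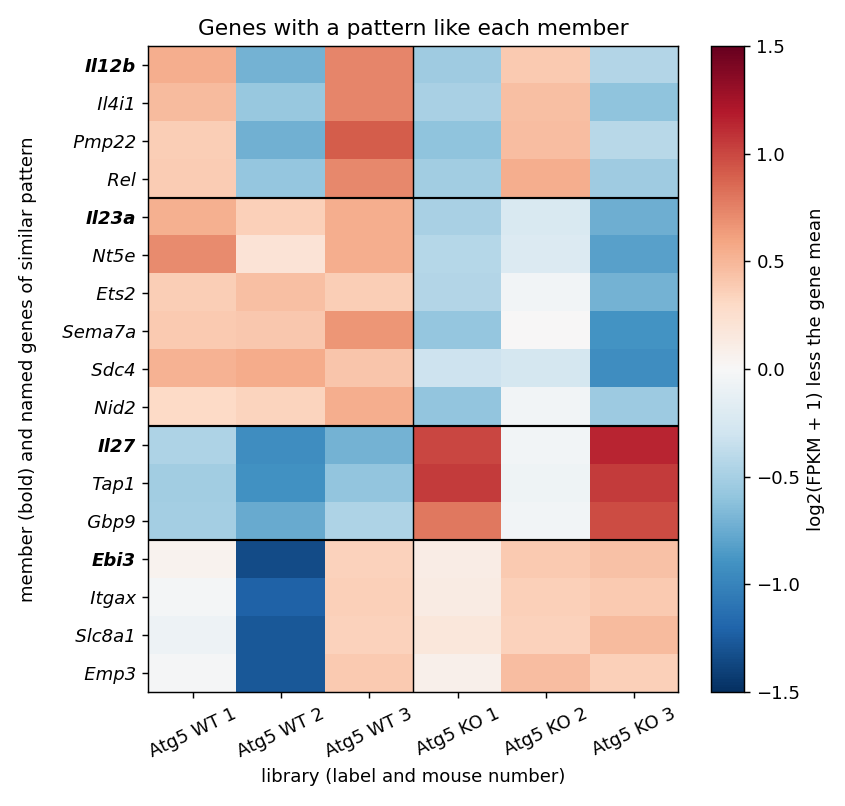
Members that passed the filter (bold) and the named genes of similar pattern. Colour gives log2(FPKM + 1) less the gene's mean over the 6 libraries, red above and blue below it. The Il23a block is red in Atg5 WT and blue or near white in Atg5 KO. The Il27 block is blue in Atg5 WT, red in Atg5 KO replicates 1 and 3 and near white in Atg5 KO replicate 2. The Il12b block is red in Atg5 WT replicates 1 and 3 and Atg5 KO replicate 2, and the Ebi3 block is dark blue in Atg5 WT replicate 2.

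Of 20 gene lists of pathways and cell types, the mean of the interferon gamma list lay closest to Il27, at a root-mean-square difference of 0.0813 on the log2 scale, and the next list lay at 0.646. The mean of the macrophage list lay closest to Ebi3 at 0.102, and the next at 0.346. For Il12b the nearest lists were the inhibitors of subunit expression at 0.313 and the mature migratory dendritic cell list at 0.326. For Il23a the nearest was the list of related helical cytokines at 0.252. The macrophage list overall was lower in Atg5 WT replicate 2 by 1.39 than its mean over the libraries, and Ebi3 by 1.34. These comparisons were chosen after the values were seen.

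**Figure D4:**
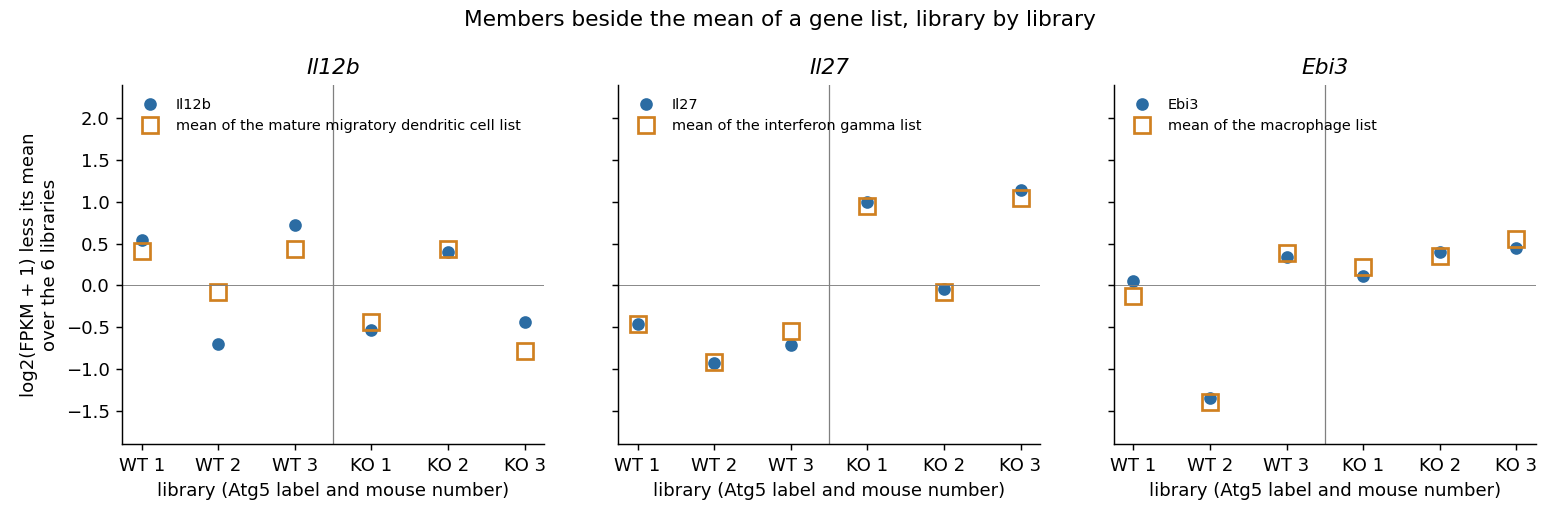
Log2(FPKM + 1) less its mean over the 6 libraries for a member (filled circles) and for the mean of a gene list (open squares), by library. Il27 and the interferon gamma list differ by 0.0813 (root mean square) and Ebi3 and the macrophage list by 0.102, while Il12b and the mature dendritic cell list differ by 0.326, most in Atg5 WT replicate 2.

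Other cells that could carry these transcripts were looked for by their markers. The 12 mature migratory dendritic cell markers summed to between 249 and 705 FPKM in Atg5 WT and between 234 and 620 in Atg5 KO. Most of each sum was Cd83, at 150 to 550 FPKM against 171 to 474. Among the other markers were Ccr7, the lymph node homing receptor, and Fscn1, an actin bundler. Ccr7 stood at 23.1, 8.91 and 30.5 FPKM in Atg5 WT and at 7.12, 28.9 and 4.34 in Atg5 KO, with the same 3 libraries high as for Il12b. Not every marker of the list had this pattern. In Atg5 WT, Cacnb3 stood at 14.6, 23.7 and 7.29 and Socs2 at 6.65, 12.3 and 2.85. Both were highest in replicate 2, where Il12b was lowest. The part of mature dendritic cells in the Il12b values was not tested. All 11 tested markers of that list had a lower mean log2(FPKM + 1) in Atg5 KO, as did 62.8% of all tested genes. Of these markers 0 passed the test (limma-trend, smallest adjusted p = 0.494) and the groups overlapped for each. The list's mean log2(FPKM + 1) was 3.52 ± 0.288 against 3.00 ± 0.629 (exact two-sided permutation p = 0.4, smallest possible 0.1).

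Of 12 markers of conventional dendritic cells, 10 passed the filter. The lowest were Xcr1, at 0.444 to 0.721 FPKM, and Clec9a, at 0.0763 to 0.771. Flt3, a growth factor receptor gene, stood at 0.479 to 1.79 FPKM and the transcription factor gene Zbtb46 at 0.719 to 1.71. Cd24a was the highest at 39.7 to 292 FPKM. Like the mean of the tumour-cell list, it was highest in Atg5 WT replicate 2 and lowest in Atg5 KO replicate 3. The source of Cd24a was not tested. Cd209a stood at 13.0 to 45.2 and Wdfy4 at 9.25 to 16.0. Irf8 and Batf3, which macrophages also express, were above 10 in every library. The conventional dendritic cell list, Cd24a included, summed to 191 to 368 FPKM in Atg5 WT and 198 to 253 in Atg5 KO. Monocyte markers summed to 66.4 to 84.9 against 81.3 to 115 FPKM, with Ly6c2, whose protein the sort gated out, at 0.483 to 0.875 in Atg5 WT and at 5.71, 0.702 and 5.29 in Atg5 KO. Ly6c2 was high in the 2 libraries with the most Il27, and its part in the Il27 values was not tested. Neutrophil markers summed to 96.4 to 362 against 69.9 to 114. T cell and natural killer cell markers, 14 in all, summed to 23.1 to 50.5 against 30.3 to 54.2 FPKM, mostly Cd4 and Cd2, and Cd3e stood at 0.0350 to 0.577. The B and plasma cell list summed to 10.1 to 45.6 against 8.46 to 20.8.

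Fibroblast and pericyte markers, 12 in all, summed to 280 to 1521 FPKM in Atg5 WT and 75.4 to 206 in Atg5 KO, without overlap and in the direction of Il23a. Their mean log2 level was 4.64 ± 1.06 against 2.94 ± 0.595 (exact two-sided permutation p = 0.1, the smallest possible). Endothelial markers summed to 34.0 to 90.4 against 14.8 to 28.4 FPKM, and mast cell and eosinophil markers to 21.9 to 98.2 against 8.31 to 20.4, with Fcer1a at 0 to 0.104. Within Atg5 WT, Il23a was lowest in replicate 2, where the fibroblast, endothelial and mast cell lists were highest. Within Atg5 KO it went the other way, and Il23a was lowest in replicate 3, where these lists were lowest too. The mast cell and eosinophil list lay at a root-mean-square difference of 0.339 from Il23a, beside 0.252 for the nearest list. The part of these cells in the Il23a values was not tested. With the mean of the tumour-cell list as a covariate the log2 difference of Il23a was -0.98, that of Il27 1.39, that of Il12b -0.80 and that of Ebi3 0.14. The fibroblast, endothelial and mast cell lists were not used as covariates, so these differences say nothing about those cells.

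The rest of the pathway was described through 9 lists holding 107 genes, 3 of them in 2 lists, of which 89 passed the filter. In the limma-trend test over all 12332 genes, 0 were called higher in Atg5 KO and 1 lower, Lyz2, which is 0.00811% of genes, and 0 of the 89 pathway genes were called. The limma-voom fit on recovered reads also called 0 higher and 1 lower. At an unadjusted p under 0.05, 21 pathway genes were higher and 10 lower, against 4.84% and 5.17% of all tested genes. The groups did not overlap for 26 higher and 10 lower of the 89 pathway genes, against 9.20% and 9.41% of all tested genes. Of the 26 higher genes, 13 were in the interferon gamma list. The median log2 difference of the pathway genes was 0.06 beside -0.09 for all tested genes. Every tested gene named below had a limma-trend adjusted p of 0.492 or more, and its values are given as they stood. Counts of genes with a higher or lower mean refer to means of log2(FPKM + 1), and the count by mean FPKM follows where it differs. They stand beside a lower mean in Atg5 KO for 62.8% of all tested genes.

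Of the receptor chains, Il6st was the highest. Il12rb1, the chain common to the IL-12 and IL-23 receptors, had 0.237, 0.180 and 0.315 FPKM in Atg5 WT and 1.89, 0.302 and 2.20 in Atg5 KO, high in the 2 libraries with the most Il27. Il12rb2, the signalling chain for IL-12, stood at 0.847 ± 0.0649 against 1.27 ± 0.13, without overlap. Il23r, particular to IL-23, was listed at 0 to 0.0214 in all libraries. Il27ra stood at 3.01 ± 1.22 against 3.68 ± 0.489, and Il6st, which encodes the gp130 chain that IL-27 shares with interleukin 6, at 14.8 ± 6.22 against 8.08 ± 1.82. Of the 3 receptor chains tested, 2 had a higher mean in Atg5 KO.

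Among receptor kinases and STATs, 2 of 7 tested genes had a higher mean in Atg5 KO and 5 a lower one. The kinase gene Tyk2, which binds the Il12rb1 chain, stood at 18.4 ± 1.76 against 24.5 ± 1.41 FPKM, without overlap. Stat3, used by IL-23 and gp130, stood at 103 ± 20.1 against 72.0 ± 15.1, and Stat5a at 18.0 ± 6.98 against 11.8 ± 2.28. Stat4, through which IL-12 signals, stood at 0.333 to 1.34 FPKM over the libraries and missed the filter.

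Microbial and CD40 inputs had 13 of 16 genes with a higher mean in Atg5 KO (11 by mean FPKM) and a median log2 difference of 0.06. Irak4, a kinase below Toll-like receptors, stood at 8.87 ± 0.86 against 12.6 ± 1.92 FPKM, the endotoxin receptor gene Tlr4 at 10.6 ± 0.519 against 15.0 ± 2.64, and Tlr8 at 15.1 ± 8.21 against 30.0 ± 4.10, each without overlap. Tlr9, the receptor for CpG DNA, stood at 6.80 ± 3.76 against 11.5 ± 1.81 and overlapped. Tlr8 and Tlr9 were lowest in Atg5 WT replicate 2, at 6.61 and 2.85 FPKM, the library with the least macrophage RNA.

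Transcription factors that induce the subunits were split, 7 with a higher and 9 with a lower mean in Atg5 KO (6 and 10 by mean FPKM), with a median difference of -0.09. Batf3, a factor of dendritic cells, stood at 15.3 ± 2.32 against 27.7 ± 2.19 FPKM, Irf1, an interferon-induced activator of Il12a and Il27, at 71.7 ± 4.24 against 106 ± 11.8, and Irf8, its partner on several of these genes, at 38.5 ± 17.7 against 75.0 ± 17.7. Cebpb, whose protein binds C/EBP sites such as that described in the Il12b promoter, stood at 267 ± 12.8 against 203 ± 27.5. None of these 4 overlapped between groups. Irf8 was lowest in Atg5 WT replicate 2, at 19.4 FPKM, the library with the least macrophage RNA.

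Inhibitors of subunit expression were split as well, 8 with a higher and 9 with a lower mean and a median difference of -0.07. Bcl3, a nuclear IkB protein gene, stood at 86.8 ± 4.85 against 54.4 ± 17.2 FPKM and Nr4a1, an orphan nuclear receptor gene, at 330 ± 23.2 against 220 ± 66.8, both lower in Atg5 KO without overlap. Maf, whose protein represses Il12b and activates Il10 in macrophages, stood at 23.0 ± 10.1 against 37.7 ± 5.69, and the interleukin 10 receptor gene Il10ra at 56.4 ± 27.4 against 91.8 ± 11.2, both higher without overlap. Maf and Il10ra were lowest in Atg5 WT replicate 2, at 12.8 and 27.5 FPKM, the library with the least macrophage RNA.

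Genes listed as outputs of the cytokines were mostly under the filter. Whether the values of those tested came from lymphocytes was not tested. Of the 9 genes listed for IL-12 and IL-27, 2 were tested. Cxcr3 stood at 1.70 ± 0.745 against 3.23 ± 0.126 FPKM and Il18 at 14.0 ± 6.89 against 17.8 ± 2.20. Ifng itself stood at 0 to 0.172 FPKM. Of the 9 genes listed for IL-23, 4 were tested. Ahr stood at 8.71 ± 1.64 against 5.77 ± 1.40, Ccr6 at 2.38 ± 1.16 against 4.38 ± 0.348 and Il1r1 at 2.78 ± 1.69 against 0.968 ± 0.303. Il17a had 1, 2 and 4 reads in Atg5 WT (0.0448 to 0.182 FPKM) and 0 in the 3 Atg5 KO libraries, too few to read a difference. Il21 was at 0 in all 6.

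Helical cytokines and soluble receptors related to the chains of this family leaned the way of Il23a. Of 9 tested, 7 had a lower mean in Atg5 KO (8 by mean FPKM), beside 62.8% of all tested genes. Their median log2 difference was -0.68, and the groups did not overlap for 4 lower and 1 higher. Lif stood at 22.6 ± 9.61 against 6.36 ± 3.01 FPKM, Il6 at 22.6 ± 7.17 against 11.5 ± 4.05, and Csf3, which encodes the granulocyte colony-stimulating factor, at 36.7 ± 20.5 against 11.7 ± 7.81. Lif, Il6 and Csf3 were highest in Atg5 WT replicate 2. The tumour-cell, fibroblast and pericyte, endothelial, mast cell and neutrophil lists were each highest in that library too. The source of these cytokine transcripts was not tested.

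Genes induced by interferon gamma leaned the way of Il27. Of 18 tested, 17 had a higher mean in Atg5 KO (16 by mean FPKM), with a median log2 difference of 1.41, and the groups did not overlap for 13. Gbp5 stood at 4.46 ± 1.61 against 30.1 ± 16.1 FPKM, Gbp2 at 16.1 ± 1.56 against 62.5 ± 28.0 and Tgtp2 at 0.872 ± 0.247 against 12.3 ± 7.86. The list's mean log2(FPKM + 1) was 3.01, 2.56 and 2.92 in Atg5 WT and 4.42, 3.39 and 4.52 in Atg5 KO, lowest in replicate 2 within each group. Il27 was lowest in the same 2 libraries.

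**Figure D5:**
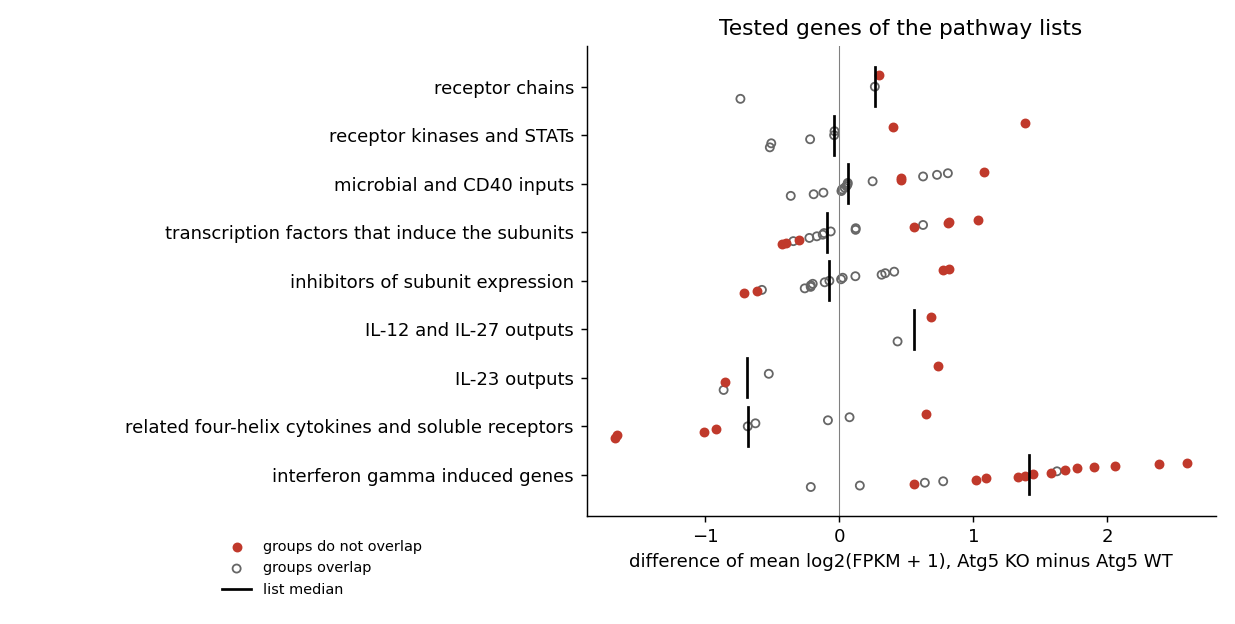
Difference of mean log2(FPKM + 1), Atg5 KO minus Atg5 WT, for each tested gene of the 9 pathway lists, with 1 circle per gene, filled where the groups do not overlap, and a bar at the list median. The interferon gamma list has a median of 1.41 and the list of related cytokines -0.68, and no gene shown passed the limma-trend test.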

How the data were processed

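RNA was sequenced from sorted macrophages of 6 mice, 3 per group, and groups and mouse numbers were taken from the labels. The deposited table holds FPKM values per gene, per the file headers, with gene lengths. Per the submitters' processing notes, STAR and CASAVA were used with build mm10, versions not given. The counting step, its strand setting and the annotation release were not given in the sources used here. FPKM times gene length gave whole reads for 100% of values, within 0.01 read.

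From these, log2(FPKM + 1) of the 12332 genes whose mean FPKM reached 1 was fitted in limma 3.58.1 (R 4.3.3, limma-trend), with group as the only term, two-sided tests, Benjamini-Hochberg adjustment over all tested genes and a threshold of 0.05. Differences are Atg5 KO minus Atg5 WT and understate changes of low genes. List scores were compared by exact permutation. The fit was tested on simulated data.

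Members and gene lists were chosen with earlier results of these data known. Named were all members, Atg5 and Lyz2, up to 4 genes of smallest p per pathway list, markers near 0 and up to 2 of the highest per cell type list, and the genes of most similar pattern, with a few genes of these lists not reported here by name. Genes named beyond these (all receptor chains, Stat4, Ifng, Il17a, Il21, Apobr, Gm16712, Csf1r, Ccr7, Fscn1, Cacnb3, Socs2, Ly6c2, Flt3, Zbtb46, Cd209a, Wdfy4 and Batf3 as a marker) and the motifs were chosen after their values were seen. All 240 list entries matched, 3 by current symbol. Each library came from a separate mouse, per the labels.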

Additional observations from a re-analysis of the deposited data

How the results depend on the processing

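The log2 differences of Il12b, Il23a, Il27 and Ebi3 kept their direction under each alternative that gave a value. These alternatives numbered 16 for Il12b, Il23a and Ebi3 and 15 for Il27. Changing the filter, robust empirical Bayes and the mouse number as a block cannot move a difference, so their agreement shows nothing. The differences ran from -1.14 to -0.77 for Il23a and from 1.18 to 2.03 for Il27. They ran from -0.83 to -0.11 for Il12b and from 0.12 to 0.96 for Ebi3. For Il27 the values beyond 1 SD of the main one were 2.03 with limma-voom on recovered reads and 1.96 with a pseudocount of 0.1, since a pseudocount of 1 shrinks low genes. Il12a had a value in the fit with no filter, -0.04, the same as the main one. Median-ratio scaling moved the median of all tested genes from -0.09 to 0.03 and the differences of Il23a and Il27 to -0.85 and 1.48. Calls over all genes numbered 0 higher and 1 lower. They were 13 and 14 with no filter, and 0 lower under median-ratio scaling. Leaving out 1 library gave 0 to 2 higher and 0 to 16 lower, with 2 and 16 without Atg5 WT replicate 2 and 0 lower without any of the other 5. The cause was not tested. No pathway gene was called under any alternative run, and the members are given without a test. Correlations of deviations across genes were 0.212, -0.376 and 0.59 for equal mouse numbers, and ran from -0.807 to 0.728 for unlike ones. Deviations from a mean of 3 libraries constrain each other, so these values cannot decide whether the numbers pair mice. With the mouse number as a block, 0 higher and 0 lower genes were called. With 3 mice per group and 1 to 6 reads for Il12a, depth limits what can be said of that chain.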
